A study of Mus musculus with 38 samples.

Results

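Genes of fatty acid and cholesterol synthesis were followed in the livers of 20 male mice, labelled as with or without c-Met in hepatocytes, after a single dose of a liver carcinogen. They are 38 genes, of 17501 genes named on the array, and were picked by gene symbol: 20 lipogenic genes (regulators, enzymes that make, desaturate and elongate fatty acids, and enzymes of triglyceride assembly) with 25 probes, and 18 sterol genes (regulators and the enzymes from HMG-CoA to cholesterol) with 32 probes. Of 36607 probes, 57 therefore belong to the set. One probe measured each of 25 genes, and several probes each of the other 13. A gene's leading probe is its first on the array, and a value without a probe number is that probe's.

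Every mouse received N-nitrosodiethylamine (DEN) once at 14 days of age, 10 µg per g of body weight. Controls carried Alb-Cre +/- alone (strain B6129), and knockouts carried Alb-Cre +/- with Met Fl/Fl (strain 129SV/C57BL6), so the Cre and the carcinogen were common to all groups and the strain labels differed with genotype. The albumin promoter drives the Cre in hepatocytes, so other liver cells keep the receptor. There were 5 mice per genotype and time, aged 12 or 20 weeks per the labels and called 3 and 5 months after the series' design text, which counts from the dose, so how long after the dose the livers were taken is unsettled. All but 2 livers were hybridised in both Cy3 and Cy5, and those 2 in a single dye, against RNA pooled from 5 wild-type male B6129 livers aged 12 weeks, for which no DEN is stated. A value is the log2 ratio of liver over that reference, 1 per mouse, so 0 is the level of the pooled livers and 1 is a doubling. Which dye is the numerator is not stated; Cy5 was taken as likely, and were it Cy3, every result given as higher would be lower and the reverse.

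Fatty acid synthesis in liver turns surplus carbohydrate into palmitate through acetyl-CoA carboxylase and fatty acid synthase. Its genes are driven by SREBP-1c, made from Srebf1, which insulin and the oxysterol receptor LXR induce, and by the glucose-responsive factor ChREBP, made from Mlxipl. Cholesterol synthesis is driven by SREBP-2, made from Srebf2. Both SREBPs are released from the endoplasmic reticulum when sterols are scarce, and the Insig proteins hold them back when sterols are plentiful. Insig1 is itself a target of the SREBPs, and Insig2 has a liver transcript that insulin lowers.

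The 250 bases before the start are shown for 4 genes whose values recur in the results, since the SREBPs act with NF-Y at promoters of these pathways. They come from RefSeq on GRCm38.p6 and are written 5′ to 3′ on the gene's strand. Capitals mark TCACNCCAC (a sterol regulatory element core), CCAAT (the NF-Y motif) and CACGTG (an E-box), each searched on both strands. The windows are chr1:121332590-121332839 on the minus strand for Insig2 (the first of its 3 entries in the table), chr5:28071162-28071411 on the plus strand for Insig1, chr13:119690101-119690350 on the plus strand for Hmgcs1 and chr11:120824548-120824797 on the minus strand for Fasn.
Insig2: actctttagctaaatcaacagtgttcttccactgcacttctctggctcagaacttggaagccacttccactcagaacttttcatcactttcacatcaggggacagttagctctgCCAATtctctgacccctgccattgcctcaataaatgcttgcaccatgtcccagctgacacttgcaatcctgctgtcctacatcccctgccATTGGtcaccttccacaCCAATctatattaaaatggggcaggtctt
Insig1: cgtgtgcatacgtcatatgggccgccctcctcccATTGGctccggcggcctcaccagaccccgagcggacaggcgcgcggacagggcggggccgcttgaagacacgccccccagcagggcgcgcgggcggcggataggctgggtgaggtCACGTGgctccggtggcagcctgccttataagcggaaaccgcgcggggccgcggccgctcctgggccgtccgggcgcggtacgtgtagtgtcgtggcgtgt
Hmgcs1: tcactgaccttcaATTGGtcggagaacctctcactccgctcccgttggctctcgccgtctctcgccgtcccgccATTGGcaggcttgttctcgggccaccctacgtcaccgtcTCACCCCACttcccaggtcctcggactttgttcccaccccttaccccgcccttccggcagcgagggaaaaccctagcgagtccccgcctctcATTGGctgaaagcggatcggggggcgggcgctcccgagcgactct
Fasn: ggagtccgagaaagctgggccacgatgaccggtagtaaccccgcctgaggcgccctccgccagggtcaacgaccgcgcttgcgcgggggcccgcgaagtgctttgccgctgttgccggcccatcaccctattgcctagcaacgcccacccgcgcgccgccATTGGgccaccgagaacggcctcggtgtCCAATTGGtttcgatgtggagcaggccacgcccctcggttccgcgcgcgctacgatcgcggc

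Counted back from the start, where -1 is the base before it, the Insig2 window held CCAAT at -136, -46 and -29. Insig1 held it at -216, with an E-box at -101. Hmgcs1 held the sterol regulatory element core at -137 and CCAAT at -237, -176 and -45. Fasn held CCAAT at -90, -62 and -59, and the last pair overlap. Windows were found for 15 of the 18 sterol genes and 15 of the 20 lipogenic genes. CCAAT was in 14 of those 15 sterol windows (93.3%) and in 7 of the 15 lipogenic windows (46.7%), against 33.8% of 32851 RefSeq windows of the same length. TCACNCCAC was in 1 window of each class (6.67%), Hmgcs1 and Mlxipl, against 1.05% of all windows. CACGTG was in 3 sterol windows (20.0%) and 1 lipogenic window (6.67%), against 6.02% of all. No entry was found for Scd1, Elovl3, Fads1, Dgat1, Dgat2, Fdps, Fdft1 and Sqle.

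Some facts of the whole series bear on these values. The arrays fall into runs of consecutive experiment numbers, called array series here: series A holds all 5-month controls and 5-month knockout animals 1 and 2, series B 5-month knockouts 3, 4 and 5, and series C and D the 3-month mice of both genotypes. Age and array series cannot be told apart, and of the 5-month knockouts only animals 1 and 2 share a series with controls. As deposited, the dye-swapped arrays of a mouse correlated at 0.34 to 0.51 across all probes at 3 months, where swapped ratios would mirror, and at -0.70 to 0.18 at 5 months; over the 57 probes described here the range was -0.49 to 0.30 and -0.81 to -0.45. For 5-month control 4, the array with the liver in Cy5 correlated at -0.61 to -0.48 with the 10 liver-in-Cy5 arrays of 3 months, so its direction is not settled. With its sign turned, the 5-month genotype difference of 26 of the 38 leading probes moved by over 1.5 times or changed sign, and 0 were called. The mice with a single array are 5-month knockouts 2 (liver in Cy3) and 3 (liver in Cy5). The Met probe was not lower in knockouts (0.42 ± 0.21 at 3 months, adjusted p = 0.655; -0.05 ± 0.21 at 5 months, adjusted p = 0.979), and whether it lies in the deleted part is not given in the sources used here. All 12 hepatocyte marker genes checked were measured, with per-mouse medians of their ratio from -0.55 to 0.30. P-values measure the spread between these mice, and in whole liver fewer cells of a type and less RNA per cell cannot be told apart.

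The comparison the study was built for is knockout against control at each time. No gene of either class passed it. With limma and Benjamini-Hochberg adjustment over all probes, 0 of 57 probes had an adjusted p under 0.05 at 3 months, against 0.0355% of all probes, and 0 of 57 at 5 months, against 0.145%. At an unadjusted p under 0.05 there were 7 (12.3%) at 3 months, against 7.96% of all probes, and 9 (15.8%) at 5 months, against 10.5%. The methods' t-test also called 0 of 57 at both times at its threshold of 0.001, where it called 63 and 242 of all probes, and 0 of all probes after Benjamini-Hochberg adjustment. The difference of the genotype effects between the times was called for 0 of 57 and for 0% of all probes.

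Fatty acid genes had no common direction. At 3 months 10 of the 20 lipogenic genes lay higher and 10 lower in knockouts, with a median difference of 0.00, and at 5 months 11 lay higher and 9 lower, with a median of 0.05. Of the 18 sterol genes 11 lay higher and 7 lower at 3 months (median 0.06), and 13 higher and 5 lower at 5 months (median 0.14). The medians over all probes were -0.02 and 0.01. The sterol median at 5 months depended on array series: it was -0.10 with knockouts 1 and 2 of series A alone and 0.27 with knockouts 3, 4 and 5 of series B alone. With the Cy5 sign of control 4 turned it was 0.03, with 10 sterol genes higher and 8 lower, and the 5-month differences of smallest p among leading probes, of Srebf1 and Insig1, were then 0.53 (adjusted p = 0.808) and 0.46 (adjusted p = 0.523) by limma, both still uncalled.

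**Figure D1:**
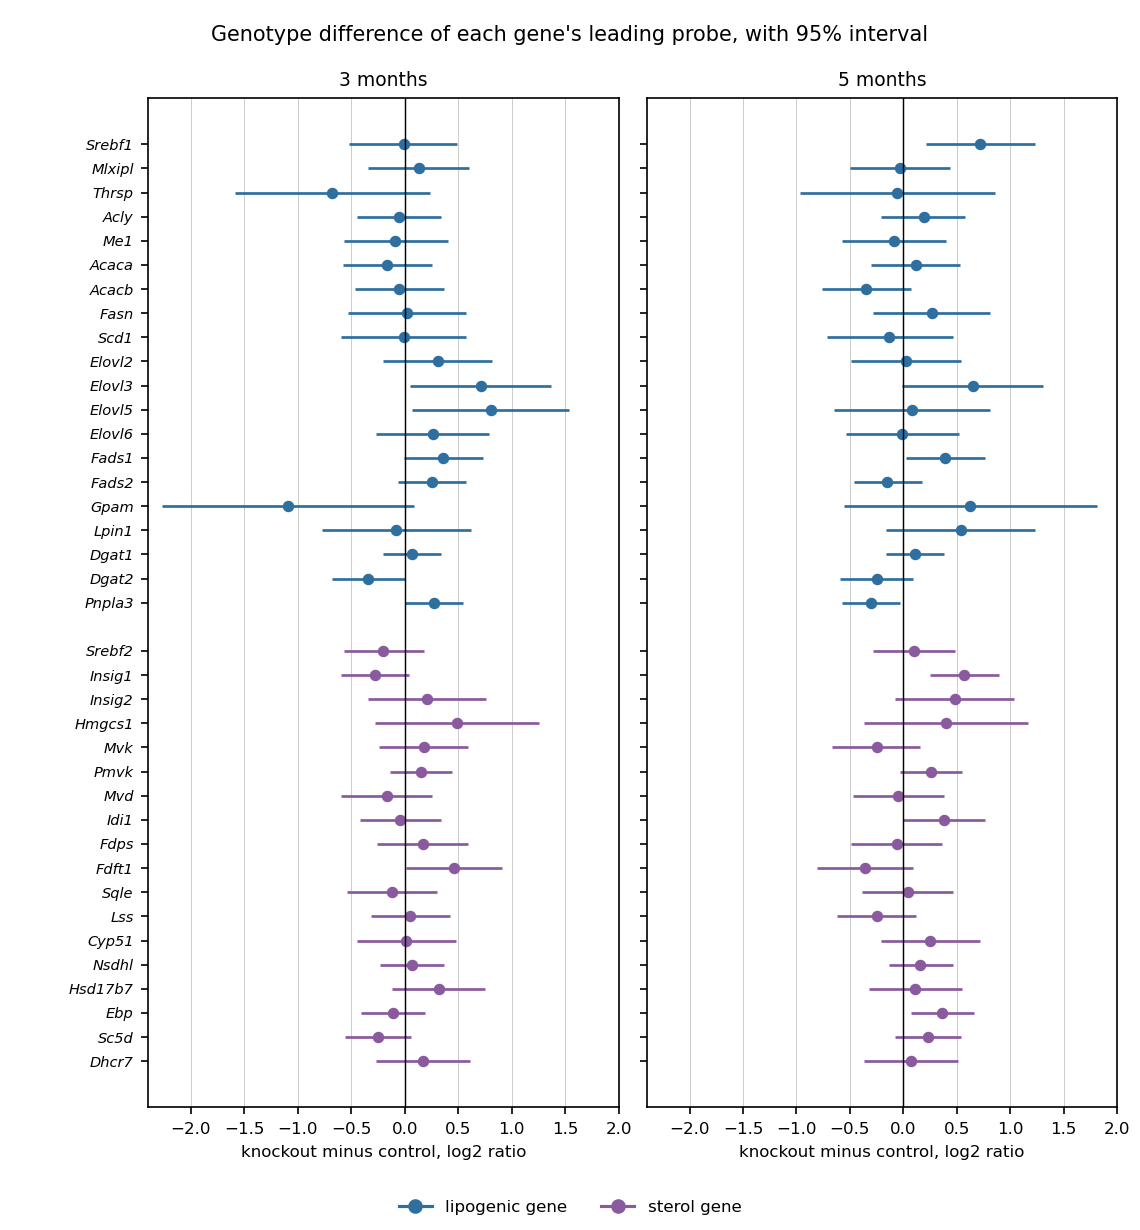
Knockout minus control difference (log2 ratio) of the leading probe of each of the 38 genes at 3 and 5 months, points with 95% intervals from limma (5 mice per group), lipogenic genes above and sterol genes below. Points lie on both sides of 0 in both classes, and the widest intervals belong to Gpam and Thrsp.

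Most limma intervals of the genotype difference lay within a 2-fold bound, with the arrays as deposited. The standard error of the genotype difference ran from 0.12 to 0.57 over the 57 probes, with a median of 0.20. The 95% interval of the leading probe lay inside a 2-fold change either way for 33 of 38 genes at 3 months and for 32 of 38 at 5 months. A missed threshold does not show that genotypes act alike.

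Among the lipogenic regulators, Srebf1 had the largest 5-month difference of any leading probe of the set, without passing the test. Its ratio was 0.40, 0.45, 0.27, 0.30 and -0.13 in the 5 controls of 3 months and 0.60, 0.04, 0.17, 0.32 and 0.11 in the knockouts. At 5 months it was -1.73, -1.09, -0.54, -0.92 and 0.18 in controls and -0.15, -0.39, -0.14, 0.16 and 0.03 in knockouts. Control 5 lay above every knockout, and the other 4 controls below all of them. The difference was -0.01 ± 0.24 (SE, n = 5 and 5) at 3 months and 0.72 ± 0.24 at 5 months, above the control mean in 5 of 5 knockouts, with limma's adjusted p = 0.302 (unadjusted 0.00774). It was 0.80 with the liver in Cy5 and 0.73 with the liver in Cy3. With knockouts 1 and 2 alone it was 0.55 ± 0.32, and with 3, 4 and 5 alone 0.84 ± 0.28.

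Mlxipl, the gene of ChREBP, lay below the reference in almost every mouse. Controls of 3 months gave -0.78, -0.55, -0.72, -0.53 and -0.64, and knockouts -0.76, -0.97, -0.76, -0.83 and 0.74. Controls of 5 months gave -0.63, -0.67, -0.55, -0.49 and -0.47, and knockouts -0.51, -0.53, -0.71, -0.74 and -0.47. Only 3-month knockout 5 stood above 0, and the groups overlapped at both times. The genotype difference was 0.13 ± 0.22 at 3 months and -0.03 ± 0.22 at 5 months, with adjusted p = 0.945 and 0.989 by limma.

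Thrsp, which encodes Spot 14, a thyroid hormone responsive protein of lipogenic tissue, was added after its values were seen. Its ratio was -0.32, -0.60, -0.68, -0.26 and 0.19 in 3-month controls and -0.60, -1.74, -1.18, -0.90 and -0.63 in 3-month knockouts, all 5 of which lay below the control mean. It was -0.83, -0.44, 0.44, -0.49 and 0.37 in 5-month controls and 0.90, 1.34, -1.07, -1.24 and -1.17 in 5-month knockouts. Knockouts 1 and 2 stood above every control and knockouts 3, 4 and 5 below every control, so the group difference of -0.06 ± 0.44 describes neither. Series B minus series A among the knockouts was -2.28 ± 0.37 (adjusted p = 0.0172 by limma), where 0.0765% of all probes were called.

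**Figure D2:**
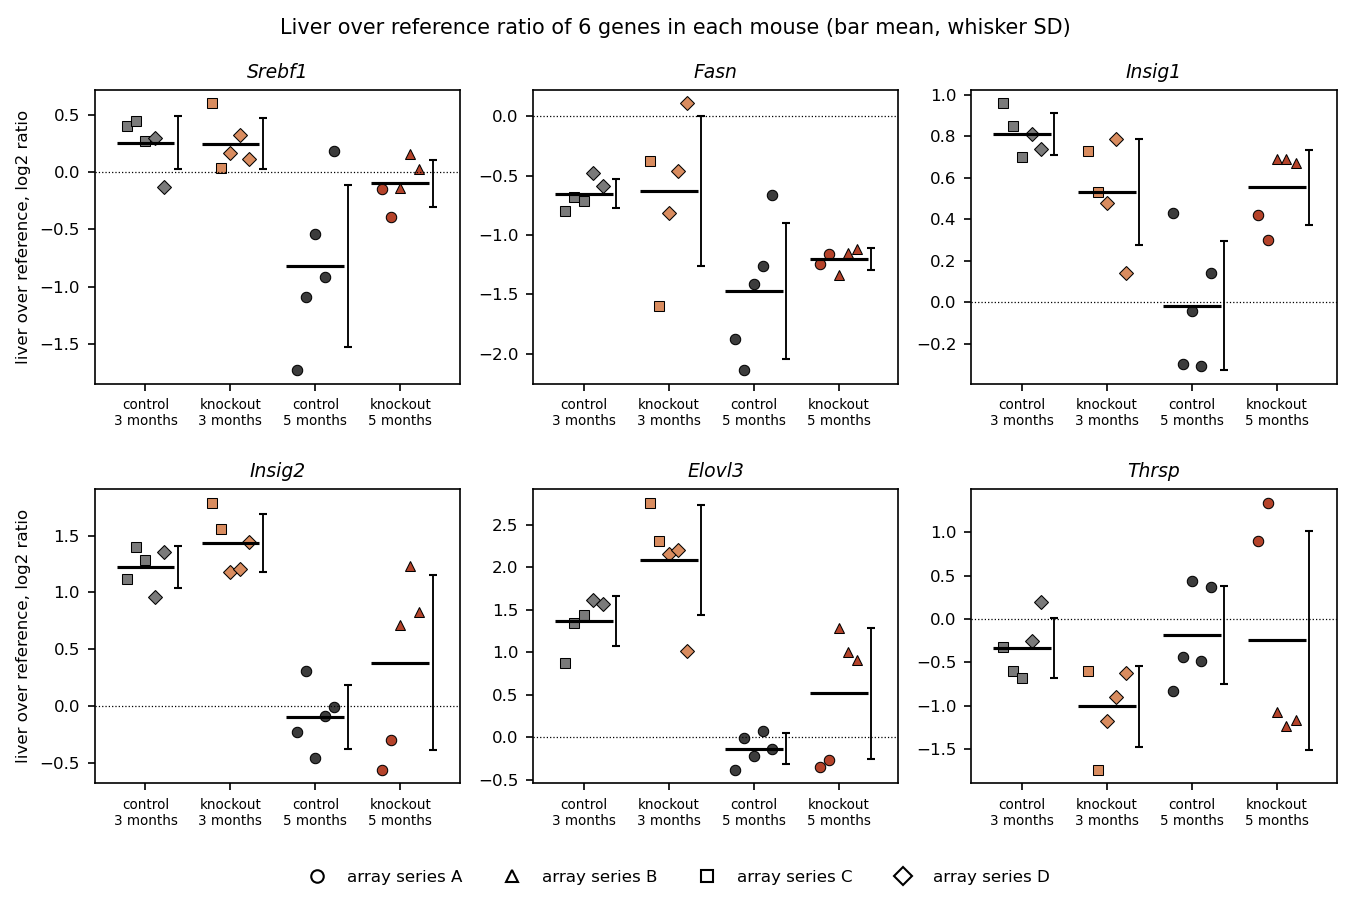
Log2 ratio of liver over reference for 6 genes, 1 point per mouse in the 4 groups, the shape giving the array series, the bar the group mean and the whisker the SD (n = 5). For Insig2, Elovl3 and Thrsp the 5-month knockouts of series A (circles) and series B (triangles) lie far apart, whereas for Fasn they lie together. Series B also lies above series A for Insig1 (0.67 to 0.69 against 0.30 to 0.42) and, barely, for Srebf1 (-0.14 to 0.16 against -0.39 to -0.15).

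Fasn, which encodes the synthase that makes palmitate, was below the reference in all but 1 liver and did not differ detectably by genotype. It was -0.80, -0.68, -0.71, -0.48 and -0.59 in 3-month controls and -0.38, -1.60, -0.81, -0.46 and 0.11 in 3-month knockouts. At 5 months it was -1.88, -2.14, -1.41, -1.26 and -0.66 in controls and -1.24, -1.16, -1.34, -1.15 and -1.12 in knockouts. The knockouts of 3 months had both the highest and the lowest value of that age, and at 5 months the controls did. The difference was 0.02 ± 0.26 at 3 months (adjusted p = 0.996) and 0.27 ± 0.26 at 5 months, with 5 of 5 knockouts above the control mean (adjusted p = 0.818, limma), and 0.05 at 5 months with the Cy5 sign of control 4 turned.

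No gene that feeds Fasn passed the test by genotype. Acly, the enzyme that releases cytosolic acetyl-CoA from citrate, differed by -0.05 ± 0.19 and 0.19 ± 0.19 at 3 and 5 months, and Me1, a malic enzyme that supplies NADPH, by -0.09 ± 0.23 and -0.09 ± 0.23. Acaca, the carboxylase that makes malonyl-CoA for synthesis, differed by -0.17 ± 0.20 and 0.12 ± 0.20. Acacb, the isoform at the mitochondrion whose malonyl-CoA restrains fatty acid oxidation, gave -0.05 and 0.22 from its 2 probes at 3 months and -0.35 and -0.18 at 5 months.

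Among the desaturases and elongases, 6 of 7 genes lay higher in 3-month knockouts, with a median difference of 0.31, and 4 of 7 at 5 months, with a median of 0.02. Elovl3, an elongase of saturated and monounsaturated very long fatty acids, was well above the reference at 3 months. Its ratio was 0.88, 1.35, 1.44, 1.62 and 1.57 in controls and 2.76, 2.31, 2.16, 2.20 and 1.01 in knockouts. At 5 months it was -0.38, -0.01, -0.22, 0.08 and -0.14 in controls and -0.35, -0.27, 1.29, 1.00 and 0.91 in knockouts. At 3 months 4 knockouts stood above every control and knockout 5 near the lowest control; at 5 months knockouts 3, 4 and 5 stood above every control and knockouts 1 and 2 among them. The genotype difference was 0.71 ± 0.32 (adjusted p = 0.576) and 0.65 ± 0.32 (adjusted p = 0.485) by limma. With knockouts 1 and 2 alone the 5-month difference was -0.17, and with 3, 4 and 5 alone 1.20.

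Elovl5, which elongates polyunsaturated fatty acids, had the largest 3-month difference above 0 in the set. Controls of 3 months gave 0.87, 0.12, 0.08, 0.27 and -0.43, and knockouts 1.55, 1.15, 1.18, 1.22 and -0.15. At 5 months controls gave 0.51, 0.60, -0.39, 0.45 and 1.40, and knockouts -0.17, 0.06, 1.01, 1.08 and 0.98. Knockouts 1 to 4 of 3 months lay above every control and knockout 5 below all but 1. The difference was 0.81 ± 0.35 at 3 months (adjusted p = 0.567) and 0.08 ± 0.35 at 5 months (adjusted p = 0.981, limma). The 5-month knockouts split by array series. Knockouts 1 and 2 gave -0.17 and 0.06, and knockouts 3, 4 and 5 gave 1.01, 1.08 and 0.98. Within series A the 5-month difference was -0.57, so the group difference of 0.08 describes neither set.

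Fads1, the delta-5 desaturase of polyunsaturated fatty acids, lay above the control mean in all 10 knockouts, though for 5-month knockout 2 this rests on the processing. It was 0.19, 0.12, 0.05, 0.01 and -0.68 in 3-month controls and 0.60, 0.22, 0.36, 0.26 and 0.06 in knockouts. In 5-month livers it was -0.02, -0.14, 0.11, -0.46 and 0.37 in controls and 0.52, -0.01, 0.49, 0.37 and 0.44 in knockouts. Knockout 2 lay only just above a control mean that takes in control 4, whose Cy5 direction is not settled. Its value of -0.01 comes from 1 array with a dye effect removed. On that array, with the liver in Cy3, it read -0.25, where the 5-month controls gave -0.14, -0.35, 0.01, -0.21 and 0.35. Without that removal it would thus lie below the control mean. The groups overlapped at both times. The difference was 0.36 ± 0.18 at 3 months and 0.39 ± 0.18 at 5 months, similar in size but not called (adjusted p = 0.636 and 0.451 by limma), and with the Cy5 sign of control 4 turned the latter was 0.25. Fads2, the delta-6 desaturase, held the lipogenic probe whose groups did not overlap at 3 months. That second probe of Fads2, chosen after its values were seen, gave -0.52, -0.36, -0.52, -0.44 and -0.92 in controls and -0.25, -0.21, -0.10, -0.05 and 0.16 in knockouts, a difference of 0.46 ± 0.15 with adjusted p = 0.379 by limma. Its leading probe gave 0.25 ± 0.15, and at 5 months both probes lay below 0, at -0.15 and -0.16. Groups without overlap and higher in knockouts made up 1.75% of the 57 probes at 3 months, against 0.385% of all probes, and groups without overlap and lower another 1.75%, against 0.929%; at 5 months there were 0 of 57, against 3.92%.

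Scd1, the desaturase that makes oleate and palmitoleate, spread over more than a log2 unit in each group. Its ratio was -0.15, -0.37, -0.81, 0.29 and -0.98 in 3-month controls and 0.28, -0.53, -0.63, -0.28 and -0.94 in knockouts. For 5 months the values were -0.35, 0.00, -0.40, 0.36 and 0.63 in controls and -0.76, -0.27, 0.29, 0.29 and 0.06 in knockouts. The groups overlapped throughout, with differences of -0.01 ± 0.28 and -0.13 ± 0.28 (adjusted p = 0.997 and 0.949, limma). Elovl2, an elongase of long polyunsaturated fatty acids, differed by 0.31 ± 0.24 and 0.02 ± 0.24, and Elovl6, which elongates palmitate to stearate, by 0.26 ± 0.25 and -0.01 ± 0.25.

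Of the genes of triglyceride assembly, Pnpla3 and Dgat2 had the smallest 3-month p-values, and Pnpla3 the smallest at 5 months. Pnpla3 encodes a lipid droplet protein whose gene SREBP-1c and ChREBP induce. It gave -0.37, -0.47, -0.56, -0.45 and -0.71 in 3-month controls and -0.07, -0.53, -0.32, -0.27 and -0.01 in knockouts. In 5-month controls it gave -0.54, -0.44, -0.57, -0.66 and -0.35, and in knockouts -0.59, -1.11, -1.01, -0.71 and -0.64. Knockouts lay above the control mean in 4 of 5 mice at 3 months and below it in 5 of 5 at 5 months. The difference was 0.27 ± 0.13 and then -0.30 ± 0.13 (adjusted p = 0.625 and 0.421), and the change between times was -0.57 (adjusted p = 0.492, limma).

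Dgat2, which adds the last acyl chain of triglyceride, was 0.31, 0.06, 0.09, 0.30 and -0.25 in 3-month controls and -0.23, -0.41, -0.32, -0.16 and -0.06 in 3-month knockouts. Its 5-month values were -0.06, -0.04, 0.29, -0.19 and 0.29 in controls and 0.13, 0.23, -0.60, -0.26 and -0.43 in knockouts. All 3-month knockouts lay below the control mean, and at 5 months knockouts 3, 4 and 5 lay below every control. The difference was -0.34 ± 0.16 at 3 months (adjusted p = 0.628) and -0.25 ± 0.16 at 5 months (adjusted p = 0.652, limma). Dgat1, the other enzyme of that step, differed by 0.07 ± 0.13 and 0.11 ± 0.13.

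Lpin1 and Gpam were described after their values were seen. Lpin1 encodes lipin 1, the phosphatidate phosphatase, and its 3 probes gave 5-month differences of 0.54, 0.43 and 0.37. The leading probe was -0.93, -0.01, 0.19, -0.23 and 0.13 in 5-month controls and 1.47, 0.80, 0.33, -0.13 and -0.62 in knockouts, so knockouts 1, 2 and 3 stood above every control and knockouts 4 and 5 among the controls. In 3-month livers it was 0.97, 0.02, 0.21, 0.59 and -0.29 in controls and 0.68, 0.48, -0.20, -0.19 and 0.34 in knockouts, which overlapped. Gpam encodes the mitochondrial acyltransferase that starts glycerolipid synthesis. Its leading probe differed by -1.09 ± 0.57 at 3 months, but by -0.19 with the liver in Cy5 and -1.99 with the liver in Cy3, and its second probe gave -0.01 ± 0.18, so the size rests on 1 dye orientation of 1 probe.

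Among the sterol regulators the Insig genes varied most. Insig1, which retains the SREBPs and is their target, lay lower in knockouts at 3 months and higher at 5 months. It was 0.96, 0.85, 0.70, 0.81 and 0.74 in 3-month controls and 0.73, 0.53, 0.48, 0.79 and 0.14 in knockouts. At 5 months it was 0.43, -0.30, -0.04, -0.31 and 0.14 in controls and 0.42, 0.30, 0.69, 0.69 and 0.67 in knockouts. All knockouts lay below the control mean at 3 months and above it at 5 months, and the groups overlapped at both. The difference was -0.28 ± 0.15 (adjusted p = 0.709) and 0.57 ± 0.15 (adjusted p = 0.18) by limma, and the change between times 0.84 ± 0.22 had an unadjusted p of 0.000908 and an adjusted p of 0.431.

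The other probes of Insig1 gave the same directions. Across its 3 probes the difference ran from -0.50 to -0.28 at 3 months and from 0.20 to 0.57 at 5 months. Probe 2 was the sterol probe whose 3-month groups did not overlap, with 0.42, 0.41, 0.42, 0.55 and 0.78 in controls and -0.09, -0.29, 0.22, 0.37 and -0.11 in knockouts, a difference of -0.50 ± 0.19 (adjusted p = 0.463, limma). With 5-month knockouts 1 and 2 alone, the 3 probes gave 0.37, -0.09 and 0.06.

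Insig2, the second Insig gene, was chosen after its values were seen, because it was among the genes of the set farthest above the reference. Its leading probe gave 1.12, 1.40, 1.29, 0.96 and 1.36 in 3-month controls and 1.79, 1.56, 1.18, 1.21 and 1.44 in knockouts. At 5 months it gave -0.23, 0.31, -0.46, -0.09 and -0.01 in controls and -0.56, -0.30, 0.71, 1.23 and 0.83 in knockouts. The 3-month genotypes overlapped, and at 5 months knockouts 3, 4 and 5 stood above every control, knockout 1 below every control and knockout 2 below all but 1. The genotype difference over its 4 probes ran from 0.10 to 0.32 at 3 months and from 0.37 to 0.52 at 5 months, none called.

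Srebf2, the gene of SREBP-2, gave -0.59, -0.52, -0.12, -0.03 and -0.20 in 3-month controls and -0.48, -0.98, -0.53, -0.60 and 0.14 in knockouts. The 5-month values were -0.23, -0.40, -0.57, -0.93 and -0.60 in controls and -0.37, -0.71, -0.24, -0.41 and -0.49 in knockouts. Its groups overlapped at both times, with differences of -0.20 ± 0.18 and 0.10 ± 0.18 (adjusted p = 0.855 and 0.934, limma), the latter -0.09 with the Cy5 sign of control 4 turned. A second probe gave 0.01 and -0.12, and stood at 0.00 and 0.32 in 3- and 5-month controls where the first probe stood at -0.29 and -0.54, so the level of Srebf2 against the reference is not settled by these probes.

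From HMG-CoA to squalene, Hmgcs1 comes first, the synthase that makes HMG-CoA. It was 0.16, -0.05, -0.39, 0.04 and -0.21 in 3-month controls and 0.65, 0.73, 0.11, 0.45 and 0.07 in knockouts. In 5-month controls it was 1.02, -0.54, -1.15, -0.62 and -0.38, and in knockouts -0.68, -1.06, 0.41, 0.89 and 0.77. All 3-month knockouts lay above the control mean; the 5-month values split, with control 1 and knockouts 3, 4 and 5 above 0 and all the others below. The difference was 0.49 ± 0.37 (adjusted p = 0.812) and 0.40 ± 0.37 (adjusted p = 0.8, limma). With knockouts 1 and 2 alone the 5-month difference turned to -0.53, and with the Cy5 sign of control 4 turned it was 0.22.

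Pmvk, the phosphomevalonate kinase, gave -0.01, 0.16, 0.00, 0.02 and 0.16 in 3-month controls and 0.43, 0.12, 0.02, 0.18 and 0.33 in knockouts. At the later time it gave -0.14, -0.33, -0.25, -0.66 and -0.06 in controls and -0.08, -0.42, 0.32, 0.11 and -0.07 in knockouts. Knockouts lay above the control mean in 4 of 5 mice at each time, with differences of 0.15 ± 0.14 and 0.26 ± 0.14 (adjusted p = 0.855 and 0.541, limma). With the Cy5 sign of control 4 turned the later difference was 0.10.

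Idi1, the isomerase of isopentenyl diphosphate, gave -0.33, -0.20, -0.21, -0.29 and -0.09 in 3-month controls and -0.36, -0.19, -0.68, -0.23 and 0.13 in knockouts. Its 5-month values were -0.01, -0.57, -0.49, -1.13 and -0.56 in controls and -0.30, -0.47, -0.30, 0.20 and 0.01 in knockouts. All 5-month knockouts lay above the control mean, and control 1 lay among them. Its differences were -0.04 ± 0.18 and 0.38 ± 0.18 (adjusted p = 0.983 and 0.478, limma), and the latter was 0.19 with the Cy5 sign of control 4 turned.

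Fdft1, squalene synthase, lay higher in knockouts at 3 months and lower at 5 months. It was -0.26, -0.21, -0.52, 0.08 and -0.70 in 3-month controls and 0.32, 0.26, 0.43, -0.30 and -0.02 in knockouts. For the 5-month mice it was 0.73, 0.05, 0.14, 0.52 and 0.17 in controls and -0.33, -0.17, 0.60, 0.28 and -0.58 in knockouts. The difference was 0.46 ± 0.22 (adjusted p = 0.618) and -0.36 ± 0.22 (adjusted p = 0.606, limma), and at 3 months it was 0.17 with the liver in Cy5 and 0.75 with the liver in Cy3. The leading probes of Mvk, Mvd and Fdps, the mevalonate kinase, the decarboxylase that yields isopentenyl diphosphate and farnesyl diphosphate synthase, differed by 0.18, -0.17 and 0.17 at 3 months and by -0.25, -0.05 and -0.06 at 5 months, or by -0.14, -0.02 and -0.31 with the Cy5 sign of control 4 turned.

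From squalene on, Sqle, the squalene epoxidase, lay below the reference in all but 1 mouse. It was -0.55, -0.08, -0.24, -0.44 and -0.67 in 3-month controls and -0.37, -0.39, -1.03, -0.47 and -0.30 in knockouts. At 5 months it was 0.15, -0.60, -0.74, -1.03 and -0.77 in controls and -0.78, -0.88, -0.44, -0.22 and -0.49 in knockouts. The groups overlapped, with differences of -0.12 ± 0.20 and 0.04 ± 0.20 (adjusted p = 0.944 and 0.986, limma), and the 5-month value was -0.18 with the Cy5 sign of control 4 turned.

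Ebp, the sterol isomerase, gave 0.91, 0.82, 0.67, 0.54 and 0.64 in 3-month controls and 0.92, 0.76, 0.50, 0.49 and 0.36 in knockouts. At 5 months its ratio was 0.00, -0.08, 0.52, -0.24 and 0.21 in controls and 0.45, 0.38, 0.40, 0.35 and 0.64 in knockouts, which all lay above the control mean, with control 3 among them. The difference was -0.11 ± 0.14 and 0.36 ± 0.14 (adjusted p = 0.913 and 0.372, limma), and with knockouts 1 and 2 alone the latter was 0.33, close to the 0.38 with 3, 4 and 5.

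Sc5d, the sterol C5-desaturase, was 0.36, 0.73, 0.25, 0.09 and 0.30 in 3-month controls and 0.41, 0.08, -0.07, -0.05 and 0.10 in knockouts. Its 5-month values were -0.34, -0.33, -0.44, -0.65 and -0.61 in controls and -0.55, -0.52, 0.09, -0.09 and -0.16 in knockouts. Knockouts 3, 4 and 5 stood above every control and knockouts 1 and 2 among the controls. The difference was -0.25 ± 0.15 and 0.23 ± 0.15, the latter 0.04 with the Cy5 sign of control 4 turned, and its second probe gave -0.02 and 0.31 ± 0.12 (adjusted p = 0.349, limma).

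Hsd17b7, a sterol 3-ketoreductase, gave 0.32, 0.33, 0.19, 0.18 and -0.68 in 3-month controls and 0.66, 0.53, 0.31, 0.47 and -0.05 in knockouts. The later mice gave 0.56, 0.29, -0.05, -0.52 and -0.06 in controls and 0.36, -0.04, 0.03, 0.26 and 0.18 in knockouts. Its groups overlapped, with differences of 0.32 ± 0.21 and 0.11 ± 0.21 (adjusted p = 0.772 and 0.935, limma). Lss, Cyp51, Nsdhl and Dhcr7, the lanosterol synthase, the lanosterol demethylase, a sterol dehydrogenase and the final reductase, had leading differences from 0.01 to 0.17 at 3 months and from -0.25 to 0.25 at 5 months.

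The 5-month knockouts differed among themselves by array series. For 17 of the 18 sterol genes the mean of knockouts 3, 4 and 5 (series B) lay above that of knockouts 1 and 2 (series A), with a median difference of 0.36, against 0.10 over all probes, of which 22921 of 36607 lay higher. For 9 sterol genes all series B mice stood above all series A mice, and for 0 below; for the 20 lipogenic genes the counts were 5 above and 8 below, and over all probes 18.1% stood above and 9.42% below. The per-mouse sterol median was -0.34 and -0.45 in series A and 0.20, 0.23 and 0.01 in series B, while the 5-month controls, all of series A, gave 0.18, -0.33, -0.37, -0.57 and -0.15. The lipogenic genes went both ways, with 9 higher and 11 lower in series B and a median of -0.01. Some of these places rest on the dye effect removed from knockouts 2 and 3, which have 1 array each. For Fdft1, counted among the 17, they read 0.59 and -0.16 on those arrays, and -0.17 and 0.60 after removal. For Gpam, counted among the 5, they read 2.01 and 0.36, and 0.00 and 2.38 after removal.

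**Figure D3:**
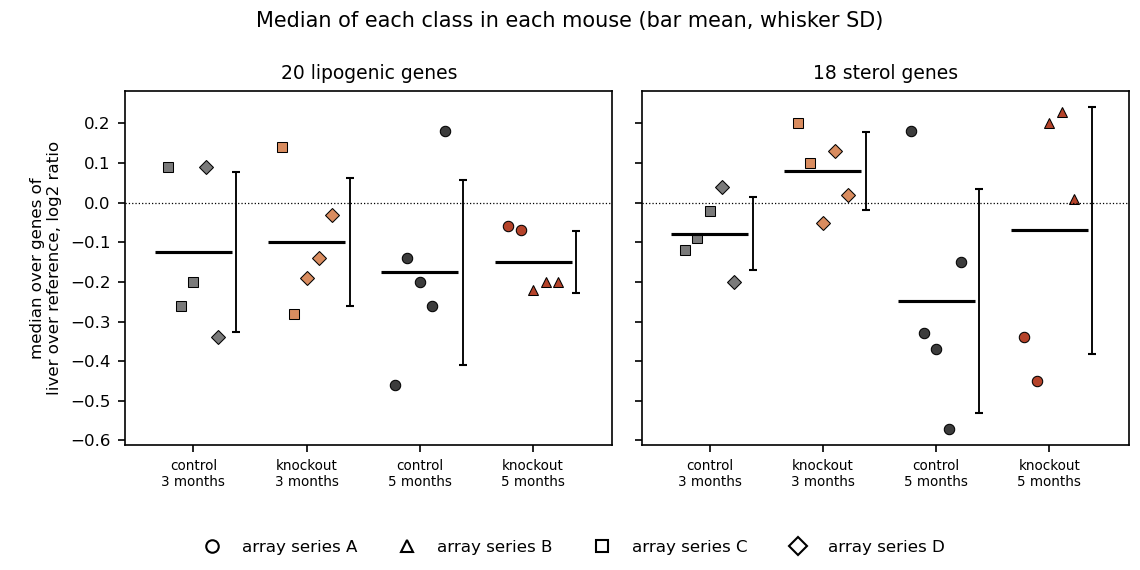
Median log2 ratio of liver over reference over the 20 lipogenic and the 18 sterol genes in each mouse, shape giving the array series, bars the group mean and whiskers the SD (n = 5). The sterol median of the 5-month knockouts is 0.01 to 0.23 in series B and -0.45 to -0.34 in series A, among the 5-month controls.

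By limma 3 probes of the set differed between the series at adjusted p under 0.05: Thrsp was lower in series B (0.041% of all probes) and probes 1 and 4 of Insig2 higher (0.0355%). The Insig2 probes gave 1.36 ± 0.23 (adjusted p = 0.0247) and 1.29 ± 0.22 (adjusted p = 0.0231). Elovl3 gave 1.37 ± 0.34 (adjusted p = 0.284) and Hmgcs1 1.56 ± 0.41 (adjusted p = 0.342). Against the controls, knockouts 1 and 2 gave 0 calls among the 57 probes and 0% of all, and knockouts 3, 4 and 5 gave 4 calls, against 0.246% of all probes, all of them higher (0.199%). Those 4 are the probes of Insig2, at 1.02, 0.85, 0.82 and 0.89 (adjusted p from 0.0204 to 0.0322), and the same probes gave -0.34, -0.06, 0.06 and -0.40 in knockouts 1 and 2. The hepatocyte marker median was 0.12 and 0.19 in the mice of series A and -0.01 to 0.11 in those of series B, and the Kupffer cell and macrophage median -0.14 and 0.00 against 0.20 to 0.60. Lymphocyte markers had medians from -0.26 to 0.05 in series A and from 0.11 to 0.38 in series B, and adipocyte markers from -0.39 to 0.07 and from 0.22 to 0.30; the part of these cells was not tested. No control shares series B, so in those 3 mice genotype and array series cannot be told apart. The split was chosen after the values were seen.

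**Figure D4:**
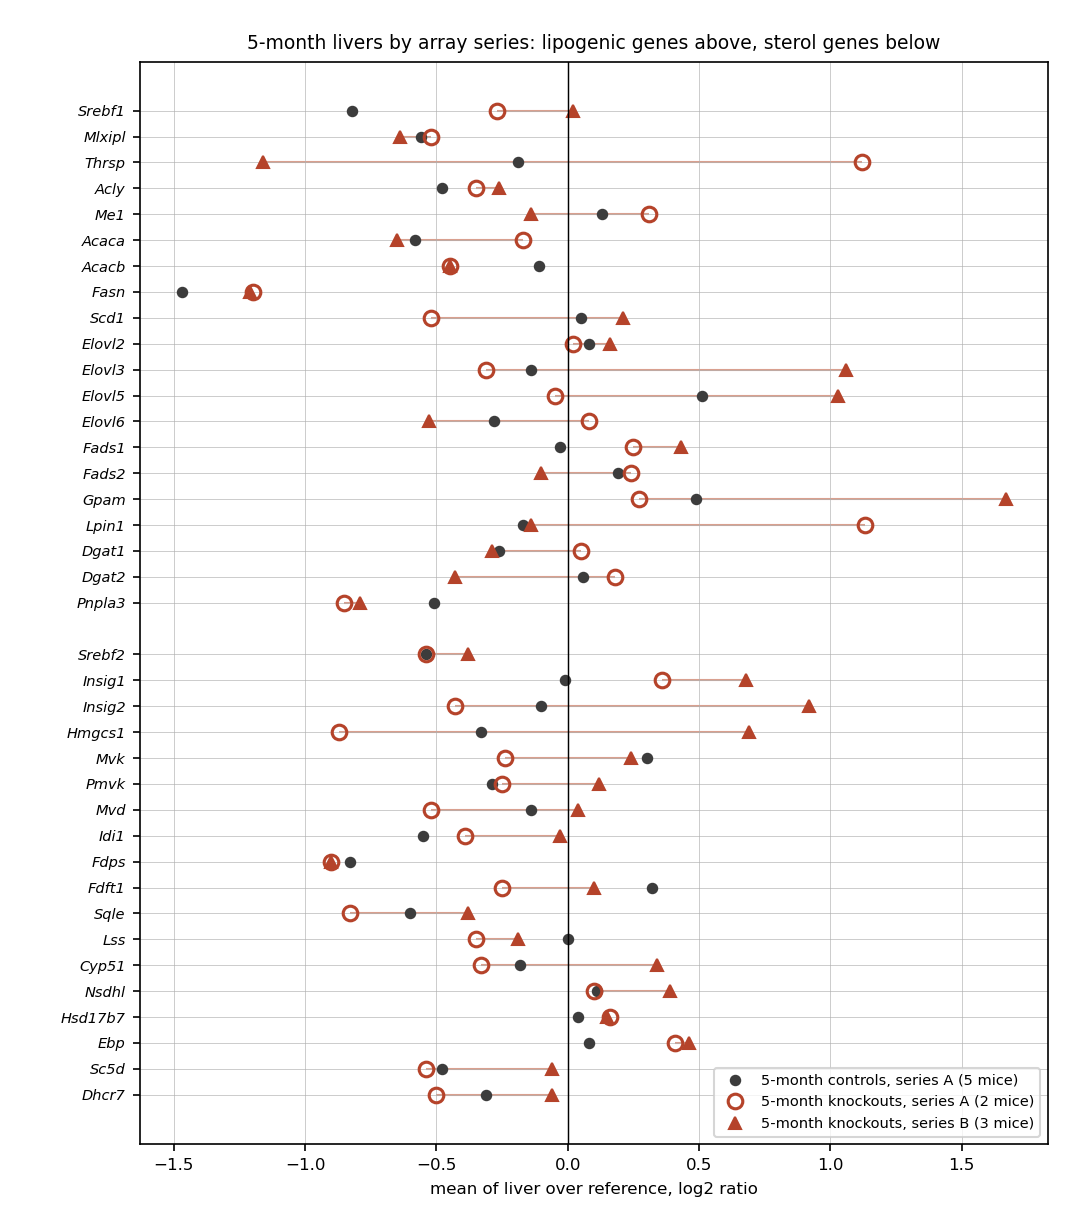
Mean log2 ratio of liver over reference of each leading probe at 5 months in controls (series A, 5 mice), knockouts of series A (2 mice) and knockouts of series B (3 mice), lipogenic genes above and sterol genes below, a line joining the knockout means. Series B lies to the right of series A for 17 of 18 sterol genes, and Thrsp and Lpin1 run the other way. The place of Fdft1 rests on the dye effect removed from knockouts 2 and 3.

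Against the reference, limma called 22 of 57 probes in 3-month controls, against 29.9% of all probes, 19 in 3-month knockouts (28.2%), 23 in 5-month controls (29.2%) and 16 in 5-month knockouts (29.5%). Higher and lower calls numbered 11 and 11 in 3-month controls (12.3% and 17.6% of all probes), 9 and 10 in 3-month knockouts (10.6% and 17.6%), 1 and 22 in 5-month controls (14.7% and 14.5%) and 5 and 11 in 5-month knockouts (17.1% and 12.4%). With each array centred on its median the splits were 11 and 8, 12 and 7, 1 and 27, and 3 and 14. With that sign turned for control 4, the count in that group was 5 in place of 23, all lower, and over all probes 4.99% were called in place of 29.2%. The reference is 1 pool on every array, so its own spread is left out.

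**Figure D5:**
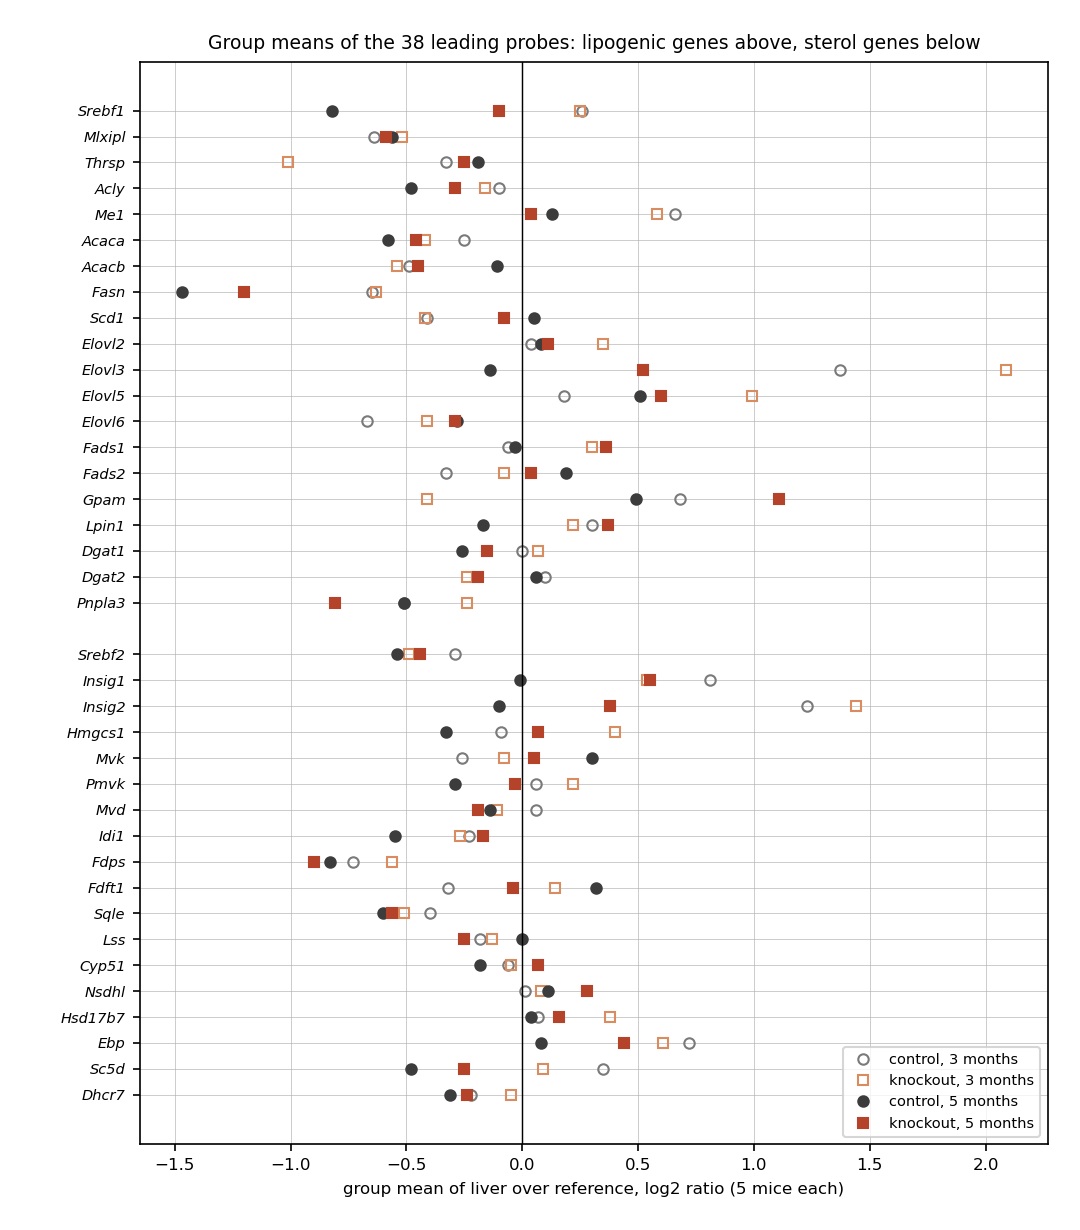
Group mean log2 ratio of liver over reference (5 mice each) of the 38 leading probes, lipogenic genes above and sterol genes below, open symbols 3 months and filled symbols 5 months, circles controls and squares knockouts. Elovl3, Insig2, Insig1 and Ebp lie to the right of 0 at 3 months and Fasn to the left of 0 in every group.

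Elovl3 and Insig2 stood highest above the reference among called members at 3 months, in both genotypes. Elovl3 was 1.37 ± 0.29 (SD, n = 5) in controls and 2.09 ± 0.65 in knockouts, with adjusted p = 0.0002 and 5.2e-06 by limma, and at 5 months -0.14 ± 0.18 and 0.52 ± 0.77, neither called. Insig2 was 1.23 ± 0.18 and 1.44 ± 0.25 at 3 months (adjusted p = 0.000122 and 4.03e-05), with all 4 probes called in both genotypes. Insig1 was 0.81 ± 0.10 and 0.54 ± 0.26 and Ebp 0.72 ± 0.15 and 0.61 ± 0.23 at 3 months, all called (adjusted p at most 0.00133). The Insig1 call in 3-month knockouts was lost on liver-in-Cy3 arrays alone (0.26, limma's adjusted p = 0.0632). It also rests on the leading probe. In those knockouts probe 2 gave -0.09, -0.29, 0.22, 0.37 and -0.11, and was not called. Probe 3 gave -0.04, -0.07, 0.35, 0.49 and -0.08, and was not called either. Me1 was called above the reference at 3 months, at 0.66 ± 0.32 and 0.58 ± 0.19, and not at 5 months; its call in knockouts was lost on liver-in-Cy3 arrays alone and without knockout 1 or 4 (adjusted p from 0.0536 to 0.071).

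Fasn was the member farthest below the reference at 5 months, at -1.47 ± 0.57 in controls and -1.20 ± 0.09 in knockouts (adjusted p = 3.82e-05 and 0.000238, limma). The call held in each dye orientation alone at 5 months. At 3 months Fasn was -0.65 ± 0.12 and -0.63 ± 0.63 (adjusted p = 0.0124 and 0.0163), and quantile normalisation ended both calls (adjusted p = 0.0604 and 0.122). The control call was also lost on liver-in-Cy5 arrays alone (adjusted p = 0.0605), and the knockout call without knockout 2 (adjusted p = 0.119) or knockout 3 (adjusted p = 0.0507). Mlxipl, Sqle and the leading probe of Fdps were called below the reference in all 4 groups. Some of these calls were fragile: that of Mlxipl in 3-month knockouts held under 7 of 13 alternatives and was lost when any of animals 1, 2, 3 and 4 was left out (adjusted p from 0.0722 to 0.112), and that of Sqle in 3-month controls under 6 of 13. With the Cy5 sign of control 4 turned, the Mlxipl and Sqle calls of the 5-month controls were lost as well (limma's adjusted p = 0.0603 and 0.109). For Fdps the probes disagreed at 3 months. Probe 2 gave 0.01, 0.08, 0.06, -0.14 and 0.03 in controls and 0.64, 0.20, 0.00, 0.27 and -0.22 in knockouts. Probe 3 gave -0.39, -0.25, -0.42, -0.04 and -0.37 in controls and 0.01, -0.41, -0.17, 0.16 and -0.10 in knockouts. The level of Fdps against the reference is therefore not settled by these probes.

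Srebf1 was called only in 5-month controls, at -0.82 ± 0.70 (adjusted p = 0.00228, or 0.0552 with that sign turned), where the 5-month knockouts gave -0.10 ± 0.21 (adjusted p = 0.688). Since the test of the genotype difference did not pass, these levels are not shown to differ. Pnpla3 was below the reference in 3-month controls and at 5 months in both genotypes, at -0.51 ± 0.13, -0.51 ± 0.12 and -0.81 ± 0.24. Elovl5 was called above it in 3-month knockouts alone, at 0.99 ± 0.66 (adjusted p = 0.00625, limma).

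Between the times, both Insig genes, Srebf1 and a few enzymes were lower at 5 months in controls. In controls limma called 16 of 57 probes, against 14.7% of all probes, 14 lower (7.25% of all probes) and 2 higher (7.41%). In knockouts it called 6 of 57, against 4.73%, all of them lower (0.743% of all probes). With arrays centred on their median the controls' split was 18 lower and 0 higher, and over all probes the median itself was 0.13 higher at 5 months in controls and 0.14 in knockouts. All 4 probes of Insig2 were called in both genotypes: they fell by 1.20 to 1.32 in controls and by 0.90 to 1.11 in knockouts. The call of the leading probe in knockouts was lost under 9 of 20 alternatives. Elovl3 was 2.84-fold lower in controls (-1.51 ± 0.32, adjusted p = 0.00539) and 2.97-fold lower in knockouts (-1.57 ± 0.32, adjusted p = 0.0168).

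The other calls in controls were Srebf1 (-1.08 ± 0.24, adjusted p = 0.00809), all 3 probes of Insig1 (leading -0.83 ± 0.15, adjusted p = 0.00269), both probes of Sc5d (leading -0.82 ± 0.15, adjusted p = 0.00231), Ebp (-0.64 ± 0.14, adjusted p = 0.00783), Fasn (-0.82 ± 0.26, adjusted p = 0.0415) and the second probe of Gpam (-0.56), by limma. Both probes of Fads2 were higher, by 0.52 each (adjusted p = 0.0279 and 0.0304), but the call of the leading probe was lost under 8 of 18 alternatives, among them arrays centred on their median (adjusted p = 0.126) and quantile normalisation (adjusted p = 0.0689). The calls of the leading probes of Elovl3, Insig2, Insig1, Sc5d and Ebp in controls held under all 18 alternatives run. That of Srebf1 held under 17 of 18 and was lost with the Cy5 sign of control 4 turned (-0.89, adjusted p = 0.056), and that of Fasn was lost under 13 of 18. With that sign turned, 11 of the 57 probes were called in controls, 2 of them higher, against 5.18% of all probes. In knockouts Pnpla3 was also called, at -0.57 ± 0.13 (adjusted p = 0.0238), and lost the call under 7 of 20 alternatives.

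In the knockouts the calls rest on few mice. Without the 2 mice with a single array the count went from 6 to 0, against 0.0355% of all probes, and without 3-month knockout 1 to 2, against 1.39%, so calls over all probes fell too. With 5-month knockouts of series B alone it was 1 (2.53% of all probes), and Elovl3 was then at -1.02 with adjusted p = 0.0561 and Insig2 -0.51 with adjusted p = 0.12; with those of series A alone it was 6 (0.546%). That a call was made in controls and not in knockouts shows no difference between genotypes: the change in the genotype effect was called for 0 probes.

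The hepatocyte markers were also compared between the times. All 12 lay lower at 5 months in controls (median -0.35), with 4 of 14 probes called lower, against 7.25% of all probes. All 12 also lay lower in knockouts (median -0.08), with 0 called, against 4.73% of all probes. Their per-mouse median ran from 0.18 to 0.22 among the controls of 3 months and from -0.55 to 0.07 among those of 5 months; for knockouts the ranges were 0.07 to 0.30 and then -0.01 to 0.19. Kupffer cell and macrophage markers had a median of -0.34 in the controls' age comparison, and endothelial markers one of -0.33. Called lower were 4 of 14 and 3 of 11 probes, against 7.25% of all probes. Control 4, whose Cy5 direction is not settled, had the lowest 5-month control median of each of these lists. It gave -0.55 for hepatocyte, -0.62 for Kupffer cell and macrophage and -0.50 for endothelial markers. The other 5-month controls gave -0.11 to 0.07, -0.42 to -0.06 and -0.25 to -0.17. Marker differences are given with that array as deposited. In the 5-month genotype comparison 12 of 12 hepatocyte markers lay higher in knockouts (median 0.19), with Hpd at 0.75 (adjusted p = 0.0706), and 7 of 8 endothelial markers (median 0.37). The stellate cell and fibroblast markers had a median of -0.09, with 3 genes higher and 5 lower. Among them 1 of 4 probes of Dcn, a fibroblast marker, was called at 0.55 (adjusted p = 0.0478), the other probes lying at 0.54 to 0.72. The part of any cell type in the results above was not tested.

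In the wider pathways a single probe was called by genotype. The 7 measured of 12 further sterol genes (16 probes), among them Scap, the escort of the SREBPs, had median genotype differences of 0.14 at 3 months and 0.09 at 5 months, with 0 probes called. The 16 measured of 20 further lipogenic genes (29 probes) had medians of 0.02 and 0.10, 0 called, and 14 of 16 lay higher at 5 months. Mid1ip1, the paralogue of Thrsp that helps acetyl-CoA carboxylase polymerise, gave 0.52 at 5 months (adjusted p = 0.302), and Pgd, a pentose phosphate enzyme that yields NADPH, 0.35 at 3 months (adjusted p = 0.598). Of 14 lipid storage genes (19 probes, medians 0.01 and -0.10) a second probe of Mgll, monoacylglycerol lipase, was called at 5 months (-0.85, adjusted p = 0.0484), with its leading probe at -0.56 (adjusted p = 0.264). G0s2, an inhibitor of the triglyceride lipase ATGL, gave -0.63 at 3 months and -0.83 at 5 months (adjusted p = 0.488 and 0.235). Of 8 measured lipid export genes (9 probes, medians 0.05 and 0.04, 0 called) the sterol transporters Abcg5 and Abcg8 gave 0.40 and 0.50 at 3 months (adjusted p = 0.468 and 0.525, limma).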

How the data were processed

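Livers of 20 mice were read on 38 2-colour arrays of 36607 probes. The values are log2 dye ratios as deposited by the authors; per the series' design text the submitters normalised each array to the 50th percentile of median signal, and the sources used here do not give the background handling, spot averaging or ratio direction. Cy3 liver arrays had their sign flipped so that all gave liver over reference. For every probe the mean dye effect of the 18 dye-swapped mice, 10 of 3 months and 8 of 5 months, was removed, and arrays were averaged per mouse. The removal acts only on the 2 mice with 1 array, both 5-month knockouts, with opposite sign. Dye-swapped arrays correlated differently at the 2 times, so this effect may not suit those mice. Taken from the 8 mice of 5 months alone, it left the 5-month lipogenic median at 0.05. Calls against the reference in 5-month knockouts were then 17 in place of 16. Probes were named by the platform table. Limma 3.58.1 in R 4.3.3 was fitted to all probes over 4 groups with a shared spread, with no filter, and p-values were adjusted over all probes (Benjamini-Hochberg, threshold 0.05). The fit was tested on simulated data. Differences carry standard errors and group means SDs (n = 5). Arrays give no read depth, so the number of mice limits precision.

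Described in full are genes with a called genotype probe, the 4 leading probes of smallest p per class and time, and 8 regulators and enzymes. The members, lists and further genes were chosen with earlier results of these data known. Alternatives covered normalisation, dye orientation, single mice and arrays, array series, a replicate block and the methods' t-test. Figures used matplotlib 3.10.9.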

Additional observations from a re-analysis of the deposited data

Results flagged for a closer look

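In 6 of 88 groups of 5 mice checked, over the 22 genes given mouse by mouse, 1 value lay apart from the other 4, by a rule that chance meets in about 1 group in 20. Of 3-month knockout 5, Mlxipl stood at 0.74 where the nearest other mouse of its group was at -0.76, and Elovl5 at -0.15 where the nearest was at 1.15. In 3-month control 5, Hsd17b7 stood at -0.68 against a nearest value of 0.18, and Fads1 at -0.68 against 0.01. Sqle stood at -1.03 in 3-month knockout 3 (nearest -0.47), and Fads1 at -0.01 in 5-month knockout 2 (nearest 0.37).

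For Insig1 all 5 knockouts lay below the control mean at 3 months and all 5 above it at 5 months. The genotype difference at 5 months minus that at 3 months was 0.84, with an unadjusted p of 0.000908 and an adjusted p of 0.431 by limma, so it was not called. The times were hybridised in different array series and cannot be told apart from them.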

How the results depend on the processing

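Of 2769 alternative values of leading probes, 2587 stayed on their side of the threshold without turning a called value, 180 lost a call, 1 gained one (Insig2 by genotype at 5 months with series B alone, 1.02, adjusted p = 0.0298) and 1 reversed: Gpam in 5-month knockouts against the reference, called at 1.11, was -0.35 on liver-in-Cy5 arrays alone. The second Gpam probe lay below the reference in those knockouts, at -0.94, -0.83, -0.72, -0.32 and -0.69. Among the 2587, uncalled genotype differences changed sign in 182 of 1824 alternatives. Members called by genotype stayed at 0 at both times in every alternative, except 4 at 5 months with series B alone. The 5-month sterol median of 0.14 became -0.10 with array series as a covariate, within series A and with series A knockouts alone; leaving out single mice gave 0.07 to 0.24. The age count in knockouts (6) was 11 after quantile normalisation, 0 on liver-in-Cy3 arrays alone, 0 without the 2 mice with 1 array, 1 with series B alone, and 2 to 6 leaving out single mice. The count against the reference in 5-month controls (23) was 6 on liver-in-Cy5 arrays alone and 5 with the sign turned on the liver-in-Cy5 array of control 4. That in 5-month knockouts (16) was 6 on liver-in-Cy5 arrays alone, 6 without the 2 mice with 1 array and 9 with series A alone. The causes were not tested. With a replicate block 0 members were called at either time and the sterol medians stayed at 0.06 and 0.14; same-numbered mice correlated at -0.07 to 0.11 at 3 months and -0.18 to 0.17 at 5 months, so the numbers were not taken as pairs. No member probe lay on ratios of small whole numbers, a sign of dim signal, in 10 or more arrays.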
